A study of Rattus norvegicus with 12 samples.

Results

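The cytosolic ribosomal proteins were represented by 75 genes, 44 of the large subunit and 31 of the small subunit, among 12604 named genes on a rat oligonucleotide array. Members were every gene named Rpl or Rps with a number, the P stalk genes, and Rpsa, leaving out the Rps6k kinases. No measured value entered that rule, but it was set with earlier results of these data known. They were read by 112 of the 41012 distinct probes, and each gene is given here by its brightest probe. All 75 passed the filter on dim probes in every comparison, and 74 were well above background in all 24 readings (12 arrays, 2 dyes). Rpl37a and the muscle paralog Rpl3l were the dim members, with mean log2 intensities of 6.95 and 6.71, against 16.79 for Rpl10. No spot of a member was saturated or outlying.

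A ribosome is built from ribosomal RNA and one copy of most of these proteins. The small subunit decodes the messenger and the large subunit joins the amino acids. Subunits are assembled in the nucleolus by a separate set of factors that are not part of the finished particle. In vertebrates most ribosomal protein messengers begin with a short pyrimidine run, the terminal oligopyrimidine (TOP) tract, through which growth signals acting on the mTOR kinase control their translation more than their amount. Growth hormone (GH) from the pituitary stimulates protein synthesis in the liver, and its pattern of release differs between male and female rats.

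Livers were from Fischer 344 rats aged 12 weeks, and pairs of liver RNAs were compared on 12 arrays, with one RNA in Alexa 647 (red) and the other in Alexa 555 (green). The RNAs came from untreated males, untreated females, hypophysectomised males and hypophysectomised females, which lack the pituitary and so its GH, and from hypophysectomised males injected with GH. Each of the 4 uninjected groups had 2 pools of 3 to 4 livers. One pool of 4 livers taken 30, 60 or 90 min after 1 GH injection, and one pool of 5 livers after 2 injections with 3 or 4 h between them, served for both of their arrays, so the spread between those arrays holds no spread between treated rats. In the 6 comparisons the dyes were swapped between the 2 arrays. Values are log2 ratios, the RNA named first over the other, with the standard error (SE) from limma and n = 2 arrays, and a difference counted as called when its adjusted p was under 0.05. The spread behind the p-values was estimated for each probe over all 12 arrays together. In every comparison it therefore mixes the spread of the GH arrays with that of the other arrays. For the GH pools the p-values hold no spread between treated rats. The RNA was amplified from its poly(A) end before labelling. In bulk liver, a smaller share of cells of a type and less RNA per cell cannot be told apart. The 2 arrays of a comparison correlated over all tested probes with r from 0.618 to 0.867, except for hypophysectomised males over hypophysectomised females, where r was 0.081. Over the members alone, r was 0.288 for hypophysectomised over intact males and 0.073 for the same in females. In the other comparisons the members had r from -0.654 to -0.314. Dye effects were left in all these values.

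The first bases of the messengers are shown because the TOP tract is the sequence that these genes are known to share. Annotated starts of 61 members were found in RefSeq (build GRCr8). A C followed by 4 bases that are each C or T, read on the gene's strand, lay exactly at the annotated start of 23 of them (37.7%), against 2.63% of all 33469 starts in the table. Allowing the run to begin up to 5 bases to either side, 37 of 61 (60.7%) had it, against 17% of all starts. Annotated starts can be some bases off, and a start without the run says only that none begins within those bases. The windows below hold 10 bases before the annotated start and 20 from it, 5′ to 3′, with capitals from the C nearest the start at which such a run was found to the end of the run. Pyrimidines can also precede the capitals, as in Rpl22. Shown are 4 members with a run beginning within 5 bases of the start and 3 without, of which Rpl5 has a pyrimidine stretch farther upstream.
Rpl10, chrX:157205840-157205869, + strand: gtgggagcgtCTCTTTTCCTCTggcgcggt
Rpl22, chr5:168117951-168117980, + strand: gcgcccccctCCCTTTCTgcctcctctgcc
Rps3a, chr2:173827023-173827052, - strand: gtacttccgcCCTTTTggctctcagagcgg
Rpl13, chr19:68062504-68062533, + strand: cggtgcccgatCCTTTCCgctcggccgttc
Rpl5, chr14:1995206-1995235, - strand: ctttcccacgtcgcttgcgtcctggaggtg
Rps19, chr1:89608678-89608707, + strand: cttgtgcgcccgggaaaccccgtcgttccc
Rpl18, chr1:105325260-105325289, + strand: acctggtctagcaggaggcgccatcatggt

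Hypophysectomy of males asks what the liver gains or loses without the pituitary. Ribosomal protein mRNAs rose by small amounts, 27 higher and 2 lower of 75, with a median log2 ratio of 0.19 (all tested probes, 0.01). In percent, 36% of the members were called higher and 2.67% lower, while 37.5% of all 25981 tested probes were called, 19% higher and 18.5% lower. The log2 ratio was positive in 68 members, and 51 were above 0 on both arrays. The large subunit contributed 15 higher and 2 lower of 44, and the small subunit 12 higher and 0 lower of 31, with medians of 0.19 and 0.21. The rises were below 2-fold throughout, and 7 members exceeded 0.50 on the log2 scale in either direction.

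**Figure D1:**
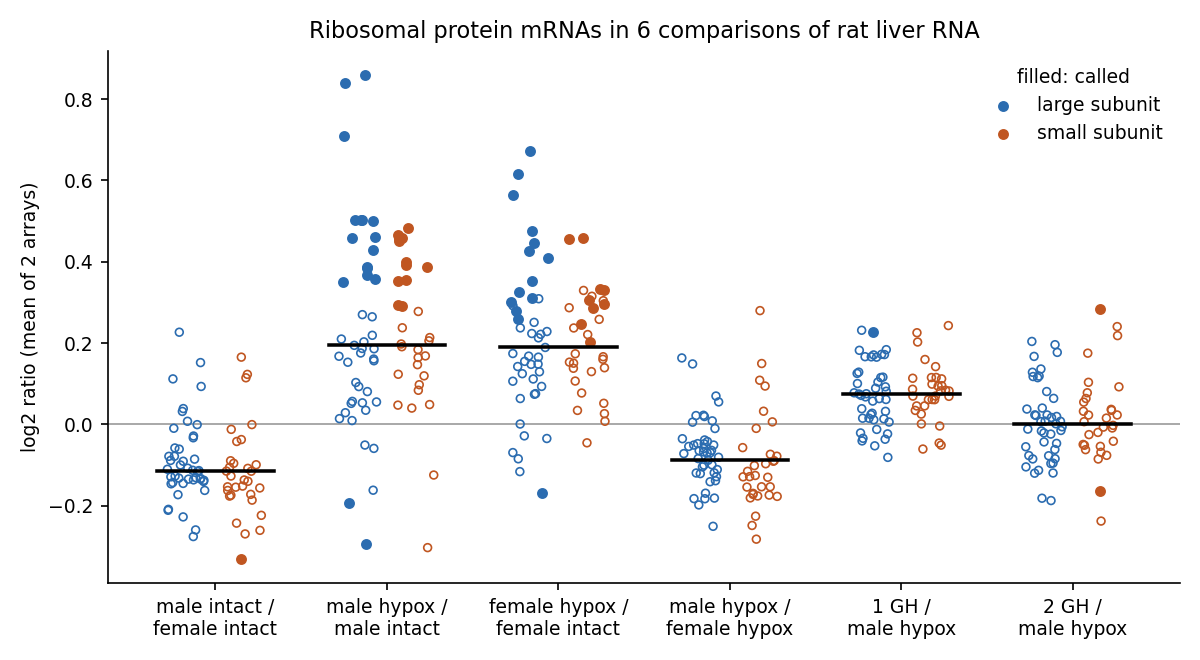
Log2 ratio of each of the 75 members (vertical axis, mean of 2 arrays) in the 6 comparisons (horizontal axis), with large-subunit members in blue, small-subunit members in orange, called members filled and the median of the 75 as a black bar. Filled points above 0 are found almost entirely in the comparisons of hypophysectomised with intact males (27) and females (22).

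Among large-subunit proteins, the RNA-binding protein Rpl7 had the highest ratio. Its arrays read 0.65 and 1.07, so the mean was 0.86 ± 0.08 (SE; 1.81-fold, adjusted p = 0.000142). Both arrays lay well above 0. Rpl10, which joins the large subunit late in assembly next to the catalytic centre, read 0.38 and 1.30, with a mean of 0.84 ± 0.09 (adjusted p = 0.000299). Its array with hypophysectomised RNA in red was the higher, and Rpl10 also had the largest dye coefficient of the members (0.51). Rpl5, which carries 5S ribosomal RNA into the subunit, read 0.89 and 0.53 (mean 0.71 ± 0.15, adjusted p = 0.00814), again with both arrays above 0.

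Next came Rpl30 (0.57 and 0.44, mean 0.50 ± 0.12), Rpl21 (0.58 and 0.42, mean 0.50 ± 0.11) and Rpl23a (0.57 and 0.43, mean 0.50 ± 0.09), the last of which lines the exit of the peptide tunnel. Their adjusted p-values were 0.0135, 0.00832 and 0.00399. Rpl3, a core protein near the catalytic centre, had 0.50 ± 0.11, and Rpl22, an RNA-binding protein of the subunit surface, had 0.46 ± 0.10. In each of these 5 the 2 arrays lay on the same side of 0. Of the small subunit, Rps19, whose human gene is mutated in Diamond-Blackfan anaemia, led with arrays at 0.62 and 0.34 (mean 0.48 ± 0.11, adjusted p = 0.0116).

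The members that fell in males were Rpl13 (arrays -0.24 and -0.34, mean -0.29 ± 0.08, adjusted p = 0.0201) and Rpl18 (-0.14 and -0.24, mean -0.19 ± 0.06, adjusted p = 0.0259), both of the large subunit. A second, less bright probe of Rpl13 read -0.03 and was not called by limma (adjusted p = 0.785). The most negative member, Rps26, an exit-site protein of the small subunit, was not called, because its arrays read 0.11 and -0.72.

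Females gave a similar picture, with 22 of 75 members higher and 1 lower and a median of 0.19 (all tested probes, 0.00). That is 29.3% higher and 1.33% lower, against 36.3% of all 24320 tested probes called, 17.9% higher and 18.4% lower. The ratio was positive in 68 members and above 0 on both arrays in 45. Rpl7 read 0.40 and 0.94 (mean 0.67 ± 0.08, 1.60-fold, adjusted p = 0.00046), Rpl5 0.60 and 0.63 (0.62 ± 0.15) and Rpl10 0.11 and 1.02 (0.56 ± 0.09). Rpl30 (0.48 ± 0.12) and Rps19 (0.46 ± 0.11) were also among the leading members, with each array between 0.41 and 0.54. The member that fell was Rpl18, at -0.12 and -0.21 (mean -0.17 ± 0.06, adjusted p = 0.0443). Of the 23 called members, 21 had both arrays on the side of the mean, the exceptions being Rps16 (-0.07 and 0.48) and Rps23 (-0.12 and 0.71). These 2 were picked out after their values were seen.

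**Figure D2:**
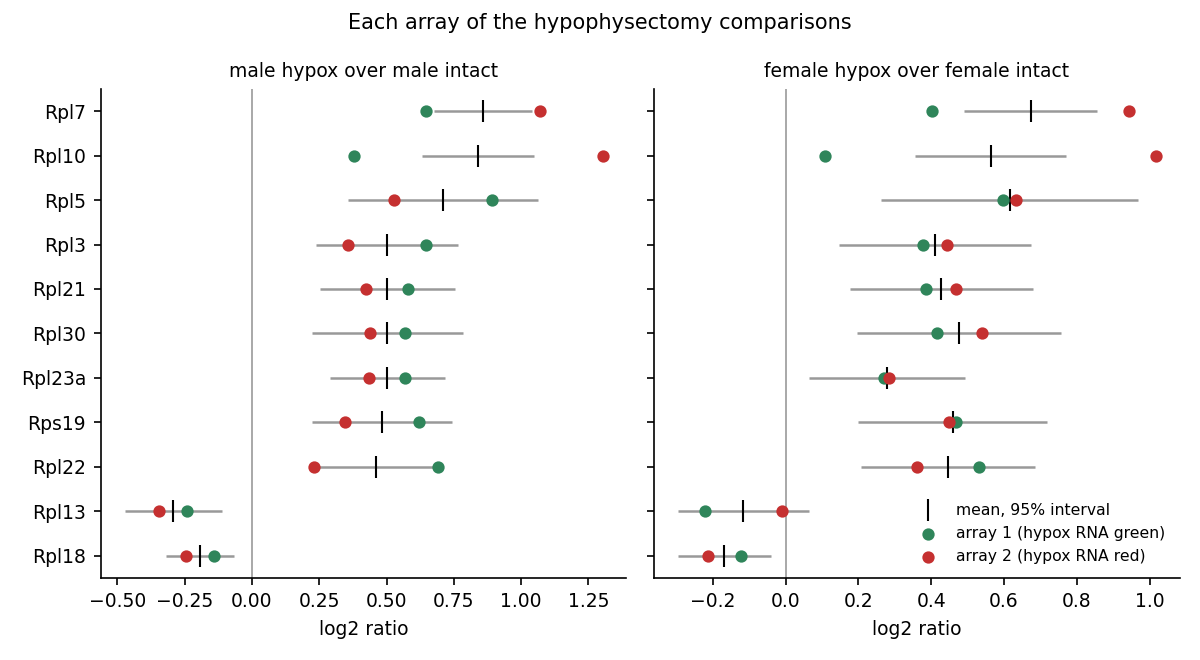
Log2 ratios of 11 members (rows) after hypophysectomy in males (left) and females (right), with array 1 in green, array 2 in red, the mean as a black tick and its 95% interval from limma as a grey line. Rpl7 and Rpl10 read higher on the array with hypophysectomised RNA in red in both sexes, while Rpl5 and Rps19 did so in neither sex or by under 0.05.

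Both sexes had 20 members higher and 1 lower, Rpl18, in common. These 21 are 72.4% of the male and 91.3% of the female calls, and across the 75 members the responses correlated with r = 0.87. The points share slides and dye orientation but no RNA. No overlap or correlation over all tested probes is set beside these values, so they are not read as particular to the members. Called in males alone were 8 members, Rpl9, Rpl13, Rpl26, Rps12, Rps14, Rps24, Rps25 and Rpsa, and in females alone Rps16 and Rps21. The difference of the male and female responses was estimated as the mean of 2 equivalent quantities, the male minus the female response and the sex difference of hypophysectomised minus that of intact rats. For this limma called 0 of 75 (6 at an unadjusted p under 0.05), against 13.5% of all probes (6.48% higher and 7.02% lower). The smallest adjusted p, 0.0519, belonged to Rpl41, a very small protein of the large subunit, with a difference of -0.28 ± 0.08. The 4 comparisons behind it reuse the pools of 4 groups, so its errors are too small by an unknown amount. From the hypophysectomised over intact arrays alone, which share no RNA between the sexes, Rpl41 had -0.19 ± 0.11, and limma called 0 of 75 (1 at an unadjusted p under 0.05), against 4.44% of all probes. With those arrays the 95% interval lay within 1.5-fold in either direction for 70 of 75 members. Without the first or the second array of hypophysectomised over intact males, 3 or 1 members were called for the averaged difference.

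**Figure D3:**
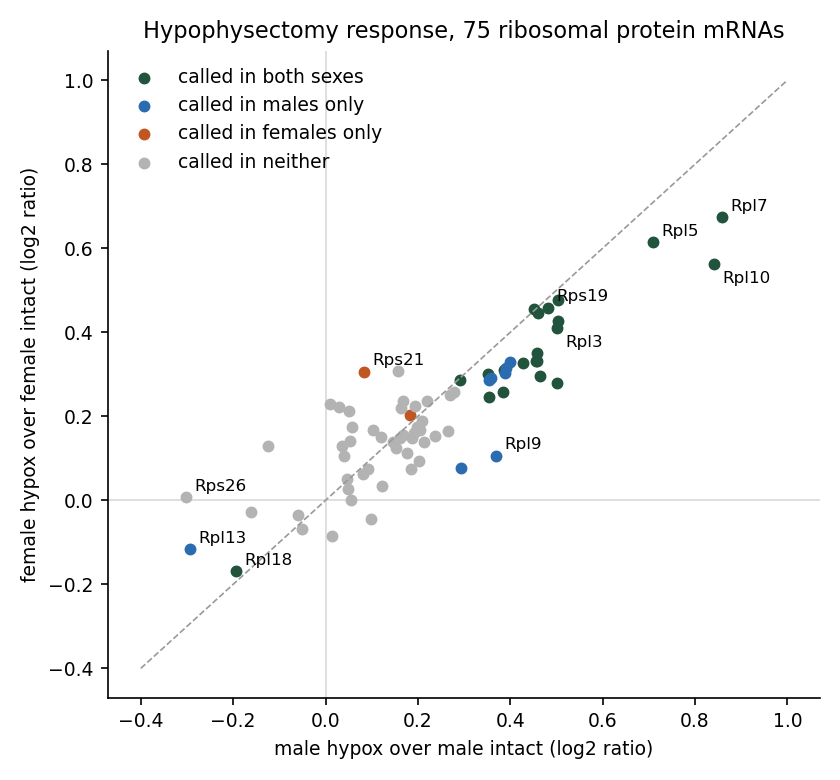
Log2 ratio of hypophysectomised over intact males (horizontal) and of hypophysectomised over intact females (vertical) for the 75 members, coloured by where each was called, with the line of equal response dashed. The 21 members called in both sexes spread along the line, with Rpl7, Rpl10 and Rpl5 at its upper end and Rpl18 at its lower end.

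The size of the male and female counts rested on single arrays and on the dye term. Leaving out the first array of the male comparison left 6 called and a median of 0.03, and leaving out the second gave 46 and 0.41. In females the counts were 2 and 3. With 1 array left, its dye effect can be removed only with the coefficient of the other comparisons. After loess, but with no dye coefficient, the members' medians were 0.22 and 0.23 on the male arrays. On the female arrays they were 0.12 and 0.31, so all lay above 0. The dye coefficient of the members (red over green) had a median of 0.12 and was called in 34 of 75, against 12.4% of all tested probes. The loess curve at bright intensities was drawn partly through the members themselves. Members and probes described as similar to a ribosomal protein made up 21.3% of tested probes at log2 intensities of 15 to 16, where 31 members lay, and 16.6% above 16, where 33 lay. With those probes given no weight in the loess, the medians were 0.29 in males and 0.27 in females, with 31 higher and 0 lower in males and 22 higher and 0 lower in females, so that the falls of Rpl13 and Rpl18 were not called. With median centring in place of loess 0 were called in either sex, and the medians were 0.36 in males and 0.14 in females, beside 0.10 and 0.02 for all tested probes.

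**Figure D4:**
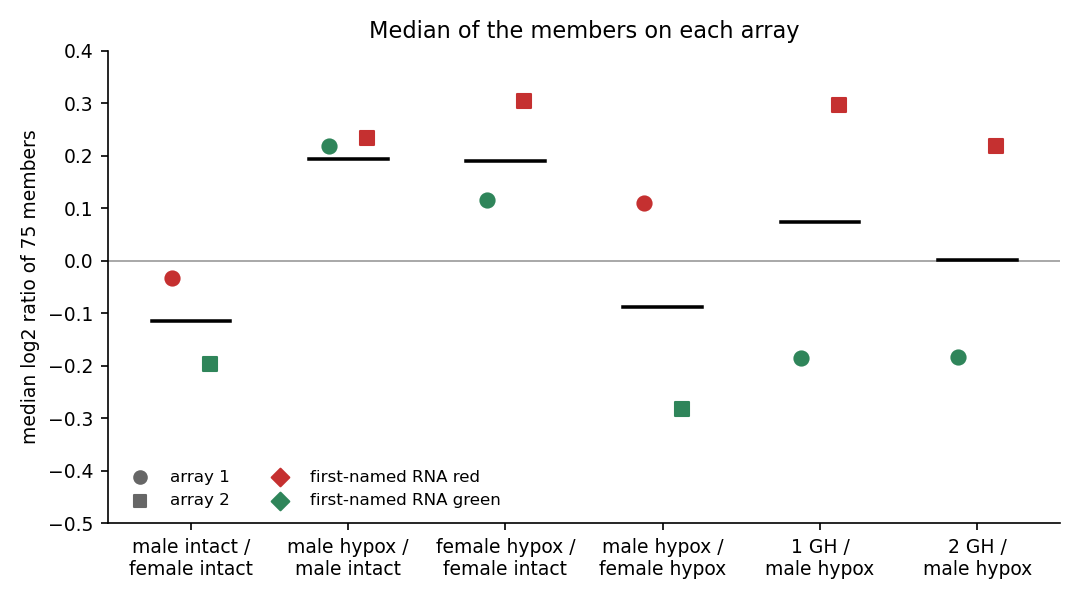
Median log2 ratio of the 75 members (vertical axis) on array 1 (circles) and array 2 (squares) of each comparison, red where the first-named RNA was red and green where it was green, with the dye-balanced median as a black bar. In both comparisons of hypophysectomised with intact rats the 2 arrays lay above 0, and in the GH comparisons they lay on opposite sides of 0.

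Repeat probes gave a check within the array. For 25 members with several tested probes, the probes of a gene differed by a median of 0.09 in the male and 0.04 in the female response. The 5 probes of Rpl21 lay between 0.45 and 0.50 in males, and the 3 of Rpl5 between 0.58 and 0.71. Rpl18 had 2 probes at -0.21 and -0.19, whereas those of Rpl13 differed, at -0.29 and -0.03. The widest range in males was at Rpl15, with 0.39 for the brightest probe and 0.80 for the other. A further 310 tested probes described as similar to a ribosomal protein had 108 higher and 10 lower in males (median 0.18). These are 34.8% and 3.23%, against 19% and 18.5% of all tested probes. In females 76 of 307 were higher and 4 lower (median 0.16), or 24.8% and 1.3%, against 17.9% and 18.4%. Cross-hybridisation between members and near-identical copies was not tested.

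Members whose symbols differ by a letter are mostly unrelated proteins, and their values are set side by side without a test of the difference. Rpl7a (0.21 ± 0.09) was not called in males beside Rpl7, nor was Rpl10a (-0.06 ± 0.09), the L1 stalk protein, beside Rpl10. Rpl10l, in mouse a retrogene copy of Rpl10, rose by 0.46 ± 0.07 and 0.35 ± 0.07 in males and females. Rpl23 (0.20 ± 0.10), Rpl13a (0.26 ± 0.09), Rpl27a (0.18 ± 0.11) and Rps27a (0.21 ± 0.09), the last made as a fusion with ubiquitin, were not called in males. Of the P stalk, which recruits elongation factors, Rplp1 had 0.16 ± 0.12 and Rplp2 0.03 ± 0.06 in males. The array names Rplp0 by its older symbol Arbp, outside the member rule, and it had 0.17 ± 0.09. Rps6, the substrate of S6 kinase, and the common reference genes Rpl13a and Rpl32 were not called in any comparison, with log2 ratios between -0.16 and 0.26.

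Markers of other cell types were also called after hypophysectomy. In males, where 19% of all tested probes were higher and 18.5% lower, 5 of 9 endothelial markers were higher and 1 lower, 5 of 11 lymphocyte markers higher and 1 lower, 4 of 9 macrophage markers higher and 0 lower, and 4 of 8 bile duct markers higher and 0 lower. In females, against 17.9% and 18.4% of all probes, the counts were 5 and 0 of 8, 5 and 1 of 11, 3 and 0 of 9, and 3 and 0 of 7. Of the stellate cell markers 4 of 9 rose and 2 fell in males, against 1 and 2 in females. Of 5 erythroid markers, which include the globins, 4 fell and 1 rose in each sex (medians -2.07 and -1.04), the last being the membrane protein gene Epb42 (0.85 ± 0.20 and 0.86 ± 0.20). After 1 GH injection 3 erythroid markers rose and 0 fell (60% and 0%, against 7.49% and 6.79% of all tested probes). Of 9 macrophage markers 5 rose and 1 fell after that injection (55.6% and 11.1%), where 1 of 75 members was called. In hypophysectomised males over hypophysectomised females, 3 of 9 macrophage markers were lower and 0 higher (33.3% lower, against 0.419% of all tested probes), where 0 members were called. Of 10 hepatocyte markers 1 rose and 3 fell after hypophysectomy in males, and 2 rose and 1 fell in females. The 2 arrays of these markers disagreed, with array medians of -1.10 and 0.47 in males and -0.91 and 0.79 in females. In males the called ones, Tat higher and Ahsg, Apoa1 and Serpina1 lower, had both arrays on the same side of 0. Of the pancreas and fat markers, 1 of 4 fell in males, and 1 of 7 rose and 2 fell in females. Their part in the ribosomal protein response was not tested.

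Intact males and females are compared to show sex-dependent expression. The members tended to be lower in males, with a negative ratio in 65 of 75 and a median of -0.12 (all tested probes, -0.01), from array medians of -0.03 and -0.20. On both arrays 38 were below 0 and 1 above, and over the other settings the median ran from -0.37 to -0.07. In the test, 1 was called lower and 0 higher by limma (9 and 2 at an unadjusted p under 0.05), against 15.5% of all probes called, 8.06% higher and 7.42% lower. That member was Rpsa, the laminin receptor precursor of the small subunit, at -0.28 and -0.38 (mean -0.33 ± 0.08, 1.26-fold, adjusted p = 0.0233). Its second probe read -0.32. For Rps2, chosen after its values were seen, the brightest of 4 probes was not called (-0.16 ± 0.05, adjusted p = 0.0633), while the other probes were called lower at -0.22, -0.29 and -0.29 (adjusted p = 0.0369, 0.00392 and 0.00704). Both arrays of Rpsa lay below 0, and without either array Rpsa was not called. In hypophysectomised over intact rats, Rpsa read 0.31 and 0.27 in males (0.29 ± 0.08, adjusted p = 0.0197) and had a mean of 0.08 ± 0.08 in females, which was not called. Rplp0 read -0.33 and -0.27 (-0.30 ± 0.09, adjusted p = 0.0511). Beside this, 6 of 9 macrophage markers were lower in males and 1, Lyz2, was higher (0.84 ± 0.09). Of the lymphocyte markers 2 of 11 were lower and 0 higher, and of the endothelial markers 2 of 9 and 0. Their part was not tested.

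Hypophysectomised males were set beside hypophysectomised females to show what sex difference is left without the pituitary. Limma called 0 of 75 (4 at an unadjusted p under 0.05, all lower in males), against 0.949% of all probes (0.53% higher and 0.419% lower). The ratio was negative in 60 of 75, with a median of -0.09 from array medians of 0.11 and -0.28. On both arrays 13 were below 0 and 2 above. The 95% interval lay within 1.5-fold in either direction for 73 members, as it did for 73 between intact males and females.

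GH was injected into hypophysectomised males to show what the hormone changes within hours. After 1 injection, 1 of 75 members was called higher and 0 lower, against 14.3% of all probes called (7.49% higher and 6.79% lower), and the median was 0.07. The member was Rpl3l, a paralog of Rpl3 expressed in muscle in mouse and human, at 0.18 and 0.27 (mean 0.23 ± 0.06, adjusted p = 0.0334), which was dim on this array, and it was not called without either array. After 2 injections 1 rose and 1 fell, against 30.9% of all probes called (15% higher and 15.8% lower), and the median was 0.00. Rps20, of the head of the small subunit, read -0.07 and 0.64 (mean 0.28 ± 0.09, adjusted p = 0.0455), and Rps2, a protein of the messenger entry channel, -0.56 and 0.23 (mean -0.16 ± 0.05, adjusted p = 0.0368). Both had arrays on opposite sides of 0, were named after their values were seen, and were not called without either array. Leading members of the hypophysectomy response had Rpl7 at -0.19 ± 0.08, Rpl5 at -0.08 ± 0.15 and Rpl10 at -0.11 ± 0.09 after 2 injections, none called.

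The dye effect was largest in these 2 comparisons. The members' medians were -0.18 and 0.30 on the 2 arrays of 1 injection and -0.18 and 0.22 on those of 2 injections, and the effect cancels in the mean of the swapped arrays. That mean was positive in 63 of 75 members after 1 injection and in 38 after 2. After 2 injections all 75 intervals lay within 1.5-fold in either direction, and after 1 injection 73 did, so larger responses were not seen for those. For the difference between 2 and 1 injections, limma called 0 of 75 (3 at an unadjusted p under 0.05), against 10.4% of all probes (5.56% higher and 4.82% lower). With plain median centring in place of loess, the median after 2 injections was -0.53 where that of all tested probes was -0.11, and 0 members were called.

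The factors that build ribosomes were measured on the same arrays. This list and the other gene lists were made with earlier results of these data known. Of 74 genes of ribosomal RNA synthesis and ribosome assembly, chosen from general knowledge, 68 rose and 1 fell after 2 injections (91.9% and 1.35%, against 15% and 15.8% of all tested probes), with a median of 0.65 and arrays at 0.67 and 0.56. Gar1, of the pseudouridylation complex, had arrays at 1.91 and 1.58 (mean 1.74 ± 0.05, adjusted p = 9.67e-07). Ddx21, a nucleolar helicase, had 1.68 ± 0.09, and Nop58, of the methylation complex, 1.64 ± 0.07. Both arrays of each lay above 1. The gene that fell was Surf6 (-0.53 ± 0.14), a nucleolar protein.

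After 1 injection, 17 of 73 rose and 0 fell (23.3% higher, against 7.49% of all probes), led by Gnl3 (0.91 ± 0.07), a nucleolar GTPase. Set against 1 injection, 52 of 73 were higher after 2 and 0 lower (71.2% higher, against 5.56% of all probes). This sets 1 pool against 1 pool. The pools differ in the number of injections and in the time since the first, which cannot be told apart. In hypophysectomised males 23 of 73 were lower and 4 higher (31.5% and 5.48%, against 18.5% and 19% of all tested probes). In females 10 were lower and 3 higher (13.7% and 4.11%, against 18.4% and 17.9%), so the share that fell was below that of all probes. Utp18, of the small-subunit processome, fell by 0.62 ± 0.06 on the log2 scale in males, and Bop1, a large-subunit assembly factor, fell by 0.56 ± 0.09. With the scanner software's processed signals the male counts were 4 lower and 6 higher, so this direction did not hold with that software's background and dye processing, whereas after 2 injections they were 65 higher and 1 lower. With median centring in place of loess none was called, and the medians were 0.12 in hypophysectomised males (all tested probes, 0.10) and 0.36 after 2 injections (all tested probes, -0.11).

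**Figure D5:**
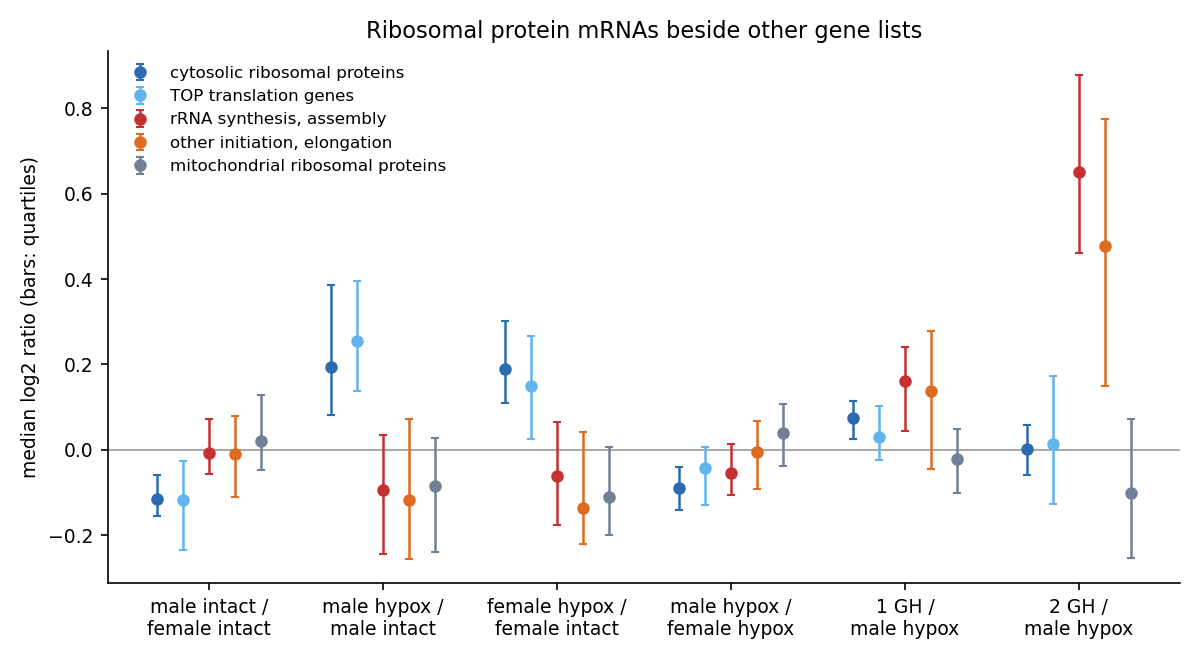
Median log2 ratio (points) and quartiles (bars) of the 75 members and 4 other gene lists in the 6 comparisons. After 2 GH injections the assembly list stood at 0.65 and the initiation and elongation factors at 0.48, while the ribosomal proteins stood at 0.00, and in hypophysectomised males the ribosomal proteins stood at 0.19 and the assembly list at -0.09.

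Other genes with TOP messengers moved with the ribosomal proteins after hypophysectomy. Of 23 such genes, listed from general knowledge, 13 rose and 1 fell in males (56.5% and 4.35%, against 19% and 18.5% of all tested probes; median 0.25), and 10 rose and 1 fell in females (43.5% and 4.35%, against 17.9% and 18.4%; median 0.15). Eef1a1, which delivers aminoacyl-tRNA, read 0.21 and 1.50 in males (mean 0.86 ± 0.06, adjusted p = 4.1e-05) and 0.10 and 1.24 in females (0.67 ± 0.06). Its red array was the higher in each sex, as for Rpl10. Eif4b (0.67 ± 0.09) and the helicase Eif4a2 (0.58 ± 0.08) rose in males too, while the translocase Eef2 fell in females (-0.37 ± 0.07). After 2 injections 4 rose and 2 fell (17.4% and 8.7%, against 15% and 15.8%). The median was 0.01, and Eef1b2 had 0.52 ± 0.07. After 1 injection 2 rose and 0 fell (8.7% and 0%, against 7.49% and 6.79% of all tested probes).

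Of 36 initiation and elongation factors outside the TOP list, 26 rose and 3 fell after 2 injections, with a median of 0.48. These are 72.2% and 8.33%, against 15% and 15.8% of all tested probes, and Eif1a led (1.66 ± 0.08). After 1 injection 8 rose and 2 fell (22.2% and 5.56%, against 7.49% and 6.79% of all tested probes). In hypophysectomised males 5 rose and 14 fell (13.9% and 38.9%), and in females 3 and 15 (8.33% and 41.7%), where 19% and 18.5% of all probes, and 17.9% and 18.4%, were called. Eef2k, the kinase that inhibits Eef2, rose by 1.15 ± 0.27 in males and 1.10 ± 0.27 in females, and had -1.18 ± 0.27 after 2 injections. Mitochondrial ribosomal proteins, 61 genes of a separate ribosome, had 6 higher and 20 lower in males (9.84% and 32.8%), 4 and 16 of 60 in females (6.67% and 26.7%), and 6 and 15 after 2 injections (9.84% and 24.6%). Among mTOR and S6 kinase signalling genes, Mtor fell by 0.63 ± 0.06 in hypophysectomised males and 0.67 ± 0.06 in females. The transcription factor Myc, an activator of ribosome production, had 3.01 ± 0.07 after 1 injection and 1.99 ± 0.07 after 2. In that list of up to 29 tested genes, 7 rose and 5 fell in males, 4 and 6 in females, 1 and 2 after 1 injection, and 7 and 4 after 2. In males these are 25.9% and 18.5% and in females 16% and 24%, near the shares of all probes. After 1 injection they are 3.7% and 7.41%, against 7.49% and 6.79% of all tested probes. After 2 they are 24.1% and 13.8%, against 15% and 15.8%. The 2 GH comparisons share the hypophysectomised male RNA.

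Grouped by their annotated starts, the members had close medians, with no test made. The 37 with the pyrimidine run had a median of 0.18 in males, 0.21 in females and -0.01 after 2 GH injections, and the 24 without it had 0.22, 0.18 and 0.00. In males, Rpl10 and Rpl22 with the run stood beside Rpl5 and Rps19 without it among the leading members, and Rpl13 with it beside Rpl18 without it among those that fell.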

How the data were processed

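Each array was read with Agilent Feature Extraction 9.1.3.1, and per the file headers the deposited columns are the mean, background and processed intensity of 45018 spots in both colours, a log10 ratio of red to green, and flags of 0 or 1. The series matrix, also deposited, holds log2 ratios of channel 2 to channel 1. Mean intensities were background-corrected (normexp, offset 50) and loess-normalized within arrays in limma 3.58.1 (R 4.3.3, with data.table version 1.17.8), without weight for 1639 control spots or outlying spots. Testing required at least 1 RNA well above background on both arrays of a comparison (29006 probes in any). Limma fitted 6 comparisons and 1 dye coefficient over 12 arrays (5 residual degrees of freedom), with Benjamini-Hochberg adjustment over all tested probes, and the code was tested on simulated data. Members and lists were chosen with earlier results of these data known. Named were the 6 largest called members each way per comparison with both arrays agreeing, letter pairs, stalk and reference genes, and up to 3 called genes each way per list. A named member is not reported here, though it is counted. The slides held replicate 1, replicate 2 or the GH arrays. The sources used here do not assign pools to arrays, and for 1 array of the 1-injection comparison the hormone came from the title. The number of arrays limits the precision.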

Additional observations from a re-analysis of the deposited data

Results flagged for a closer look

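The ribosomal proteins themselves had no called difference between the sexes' responses or between 2 and 1 injections in limma. Among the gene lists beside them, the test of the difference itself picked out the following. Between 2 and 1 GH injections, 52 genes of ribosomal RNA synthesis and ribosome assembly differed, all higher after 2 (71.2% of those tested, against 5.56% of all probes), with log2 differences of 1.23 for Ddx21, 0.99 for Gar1 and 0.94 for the assembly factor Wdr12. Also between the injections, 14 initiation and elongation factors, 5 mTOR and S6 kinase signalling genes and 1 mitochondrial ribosomal protein differed, where 10.4% of all probes did. The mitochondrial share, 1.64%, was below that. Myc was lower after 2 than after 1 (-1.02). All these differences set 1 pool against 1 pool. The number of injections and the time since the first cannot be told apart in them. The averaged difference of the male and female responses to hypophysectomy also takes in the comparisons between the sexes. For it, 7 of 36 initiation and elongation factors (8.33% higher and 11.1% lower) and 3 mTOR and S6 kinase signalling genes were called. Also called were 3 mitochondrial ribosomal proteins, 1 TOP translation gene (Eif4a2, 0.43) and 1 assembly gene (Gnl3, -0.31). Eif4a2 had 0.58 in males and 0.15 in females, and Gnl3 -0.07 and 0.21. Of all probes 13.5% were called for this difference, so that the mTOR (12%), mitochondrial, TOP (4.35%) and assembly (1.37%) shares were below it. Because its comparisons reuse the same pools, its errors are too small by an unknown amount. From the hypophysectomised over intact arrays alone 4.44% of all probes were called, and the calls of these lists there are not given.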

How the results depend on the processing

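Of the called members, 1 changed direction under a setting, Rps20 after 2 injections (0.28, and -0.27 with median centring), and the number called depended on the normalization and the dye term. The counts obtained from the main analysis were 1 (intact males over females), 29 (hypophysectomised over intact males), 23 (the same in females), 0 (hypophysectomised males over females), 1 (1 GH injection), 2 (2 injections), 0 (difference of the male and female responses) and 0 (difference of the injections). Median centring in place of loess gave 0 in each of the comparisons that had calls. It moved the median of all tested probes to 0.10 in males, where the members' median was 0.36, and at most 1.52% of all probes were called. With the scanner software's processed signals, and likewise with the series' value table, the counts were 0 for intact males over females, 7 in females, 2 after 1 injection, 1 after 2 and 1 for the difference of the injections. With no dye coefficient they were 16 in males, 6 in females, 0 after 1 injection and 0 after 2. Fits to the arrays of a comparison alone, with no dye term, gave 0 for intact males over females, 2 in hypophysectomised males, 0 after 1 injection and 0 after 2. The 2-injection count was 0 with loess without ribosomal probes, and 1 with no filter on dim probes. The probe median of each gene gave 2 for intact males over females. Added after seeing the data were a dye coefficient for the GH arrays and another for the rest (5 for intact males over females, 3 for the difference of the responses) and the slide as a fixed block (2 for intact males over females, 4 after 2 injections). The difference of the responses from the hypophysectomised over intact arrays alone, also added, gave 0. The slide as a random block had an estimated correlation of 0.014. Leaving out each array in turn gave 0 to 0 for intact males over females, 6 to 46 in hypophysectomised males, 2 to 3 in females, 0 to 0 after 1 and 2 injections, and 0 to 3 for the difference of the responses. The replicate block gave 0 after 1 injection, 25 in males and 19 in females. The numbers were not shown to pair the arrays, since 6 of 15 correlations between comparisons were over 0.1 (range -0.67 to 0.84). Of 272 values for the named members, 196 kept their side of the threshold and 76 were no longer called. The cause was not tested.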
